A study of Bos taurus with 38 samples.

Results

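The genes described here were higher in the rumen papillae of feed-restricted bulls than in those of bulls fed ad libitum, and lower again in restricted bulls that had been given feed ad libitum. They are 165 of the 12,543 genes listed in both periods of the study, and they were chosen on measured values. A gene was a member if its mean log2(CPM + 1), where CPM is the deposited value, taken here as counts per 1,000,000 reads of a scaled library size, was at least 0.4 higher in RES than in ADLIB in Period 1, and at least 0.4 lower in RES in Period 2 than in RES in Period 1. Its mean over all 38 bulls had to be below 500 CPM. Both differences were met by 173 genes, of which 6 were among 8 identifiers left out beforehand and 2 were at or over the level limit. The deposited values carry Ensembl identifiers of the bovine genome without symbols, and none of the identifiers could be paired with a symbol here. The members are therefore described by their levels, their ranks and their behaviour in each bull, and their functions are not known here.

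The rumen is the fermentation chamber of cattle. Its wall carries papillae, leaf-shaped projections lined by a stratified squamous epithelium that takes up the short-chain fatty acids made by rumen microbes. Papillae are known to shrink when feed intake is low and to grow out again when intake rises. Compensatory growth is the accelerated growth of an animal that is fed freely after a period of restriction.

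Papillae were taken from Holstein Friesian bulls at slaughter and their mRNA was sequenced, with 1 library per bull. In Period 1, RES bulls (n = 9) were held on a restricted feed allowance and ADLIB bulls (n = 9) were fed ad libitum, and tissue was collected at day 125. In Period 2 the RES bulls were brought up to ad libitum intake over a transition and all bulls were then fed ad libitum, and tissue was collected at day 55 from bulls that had been restricted (RES, n = 10) and from bulls that had not (ADLIB, n = 10). All 4 groups received the same type of diet of concentrate and grass silage, and the bulls of Period 1 and Period 2 are different animals, so a difference between periods is also a difference between sets of bulls and includes age. The labels name rumen epithelium as the tissue, although 1 of their protocols speaks of muscle, and the tissue could not be checked by marker genes because no gene could be named.

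The 38 libraries held 5,948,453 to 11,957,654 reads on the listed genes. Each library name starts with 1 of 4 digits, which the labels leave unexplained, and the 10 libraries with the digit 1 were the shallowest, with at most 7,349,256 reads. They made up 4 of the 9 RES and 1 of the 9 ADLIB libraries in Period 1. The libraries that stood apart from their group in the mean level of the members were ADLIB Period 1 replicate 4 and RES Period 2 replicate 1, both on the high side, and values without them are given for the mean levels, the correlations of the blocks and the choice of members.

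The values that chose the members are given as a description. The rise in RES over ADLIB in Period 1 had a median of 0.62 in log2(CPM + 1), which is 1.53-fold in CPM + 1, and ranged from 0.40 to 1.95. The difference between RES Period 2 and RES Period 1 had a median of -0.69, with a range from -1.89 to -0.40. A difference of at least 1 on the log2 scale was reached by 25 members in the rise and by 27 in the fall, and by 8 members in both. The members lay at the edge of a continuous cloud of genes rather than apart from it, as the plot of both differences shows. At the threshold of the rise, the 2 nearest genes inside had differences of 0.4034 and 0.4065 and the 2 nearest outside had 0.3979 and 0.3971. At the threshold of the fall, the nearest inside were at -0.4008 and -0.4048 and the nearest outside at -0.3982 and -0.3888. Because the tissue was measured in bulk, fewer cells of a type and less RNA per cell cannot be told apart in any of these values.

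**Figure D1:**
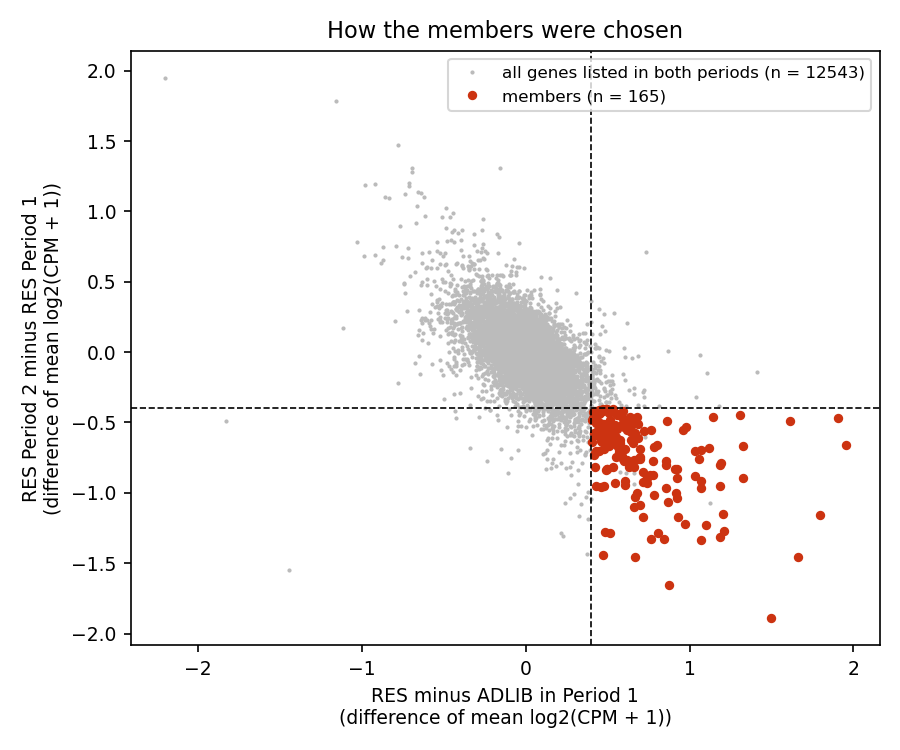
Each point is a gene, with the difference between RES and ADLIB in Period 1 on the x axis and the difference between RES Period 2 and RES Period 1 on the y axis, both in log2(CPM + 1). Dashed lines mark the thresholds of 0.4, and the 165 members (red) fill the lower right corner at the edge of the cloud of 12,543 genes (grey). The axes share RES Period 1 with opposite sign, which alone tilts the cloud downwards.

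Most members were transcripts of low abundance. Their median level over the 38 bulls was 7.78 CPM, while the median of all genes was 20.2 CPM. A mean under 10 CPM was found for 98 members, which is 59.4% of them, compared with 32.2% of all genes. A further 55 members lay between 10 and 100 CPM and 12 between 100 and 500 CPM. Of the 165 members, 157 had at least 1 read in every library, and the member with the fewest reads had 460 over all libraries together. Counting error is therefore largest in the members of lowest level.

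Averaged over the 165 members, the level in RES Period 1 was 3.83 ± 0.32 (SD, n = 9) in log2(CPM + 1), against 3.12 ± 0.30 (n = 9) in ADLIB Period 1, 3.16 ± 0.30 (n = 10) in ADLIB Period 2 and 3.09 ± 0.22 (n = 10) in RES Period 2. The lowest RES Period 1 bull stood at 3.38, the median bull at 3.71 and the highest at 4.33. The ADLIB Period 1 bulls ranged from 2.82 to 3.78 with a median of 3.03, the ADLIB Period 2 bulls from 2.71 to 3.66 with a median of 3.12, and the RES Period 2 bulls from 2.86 to 3.67 with a median of 3.05. RES Period 1 thus overlapped with each of the other groups through their highest bulls. In ADLIB Period 1 the overlap came from replicate 4, at 3.78, since the next bull stood at 3.29. In RES Period 2 it came from replicate 1, at 3.67, since the next stood at 3.12. Without these bulls the means were 3.04 ± 0.18 in ADLIB Period 1 and 3.02 ± 0.09 in RES Period 2. In ADLIB Period 2, replicates 9, 1 and 7 reached 3.66, 3.52 and 3.41.

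**Figure D2:**
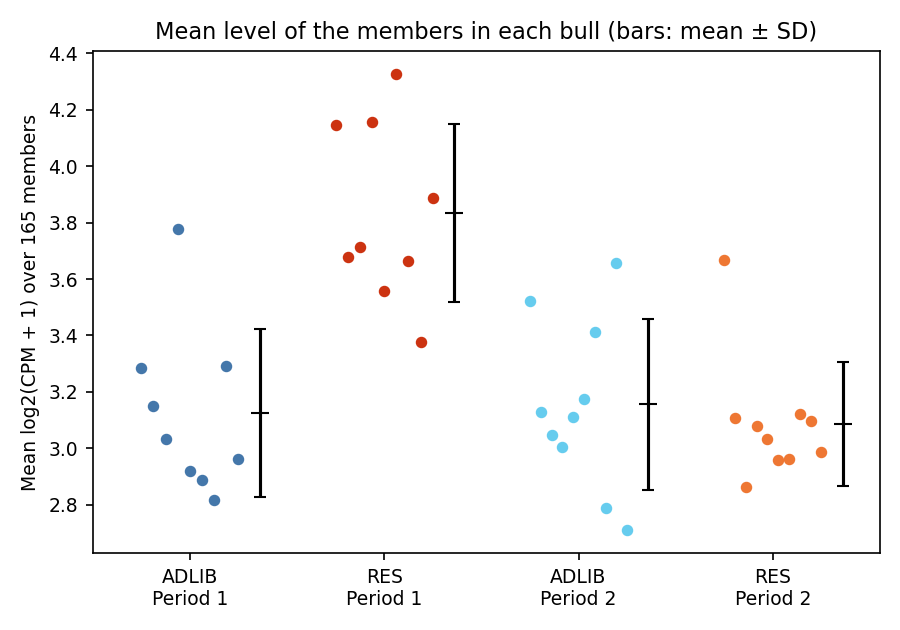
Each point is a bull and gives the mean log2(CPM + 1) over the 165 members, with the group mean ± SD beside it. The RES Period 1 bulls lie between 3.38 and 4.33, and 1 bull each of ADLIB Period 1 (3.78) and RES Period 2 (3.67) lies far above the rest of its group.

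Within libraries of the same leading digit, the mean level of the members was higher in RES than in ADLIB in Period 1 by 0.58 for the digit 1, by 0.91 for the digit 2, by 0.18 for the digit 3 and by 0.99 for the digit 4. The smallest of these values compares 1 RES bull with 2 ADLIB bulls, of which replicate 4 is 1. Without replicate 4 it was 0.43, from 1 bull of each diet. The difference between RES Period 2 and RES Period 1 was -0.67, -0.88, -0.53 and -0.89 in the same order, and -0.77 for the digit 3 without RES Period 2 replicate 1. Each of these rests on 1 to 4 bulls per group and carries no test, and the direction follows from the choice of members.

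Single members overlapped between groups far more than their averages. In none of the 165 members did all RES Period 1 bulls exceed all ADLIB Period 1 bulls, while 0.00797% of all genes showed this. All 9 RES Period 1 bulls were above the ADLIB Period 1 median for 56 members, 8 of the 9 for 58 members, 7 for 31 members and at most 6 for 20 members. These counts come from the contrast that chose the members and were not made over all genes, so nothing is read from them. The RES Period 1 bulls all exceeded all RES Period 2 bulls in 2 members, against 0.0797% of all genes. One of these ranged from 2.01 to 4.51 CPM in RES Period 1 and from 0.841 to 1.71 CPM in RES Period 2. It ranged from 0.641 to 2.25 CPM in ADLIB Period 1 and from 0.682 to 2.46 CPM in ADLIB Period 2, so its control groups reached into the restricted range. The other ranged from 3.19 to 5.76 CPM in RES Period 1. Every RES Period 2 bull fell short of this range, the lowest at 1.02 CPM and the highest only just below it. The control groups again reached into this range, with highest bulls at 3.39 CPM in ADLIB Period 1 and 4.43 CPM in ADLIB Period 2.

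When members were ranked by the smaller of their rise and their fall, ENSBTAG00000002092 came first, with 1.50 for the rise and -1.89 for the fall. In RES Period 1 its values were confined to a narrow band, with a lowest bull at 6.23 CPM, a median of 12.7 CPM and a highest bull at 16.6 CPM. In ADLIB Period 1 it ranged from 0.183 to 17.6 CPM with a median of 1.89 CPM. In ADLIB Period 2 the lowest bull had no read, the median was 1.11 CPM and the highest bull, replicate 1, had 52.4 CPM where the next had 2.68 CPM. In RES Period 2 the range was 0.318 to 27.4 CPM with a median of 1.58 CPM, and the highest bull was again a single one, replicate 1, above a next value of 6.86 CPM. Every RES Period 1 bull thus expressed the gene at a middling level. In each other group the median lay below the lowest RES Period 1 bull and the highest bull lay above the highest. In ADLIB Period 1, replicates 5, 1, 8 and 4 had 6.96, 9.95, 11.2 and 17.6 CPM, within or above the band of RES Period 1. The SD of log2(CPM + 1) was 0.47 in RES Period 1, 1.51 in ADLIB Period 1, 1.64 in ADLIB Period 2 and 1.34 in RES Period 2.

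ENSBTAG00000013578 was the next in this order, with 1.66 for the rise and -1.45 for the fall. Its values ran from 1.19 to 57.8 CPM in RES Period 1, with a median of 11.1 CPM. In ADLIB Period 1 they ran from 0.111 to 33.2 CPM with a median of 0.857 CPM, and only replicates 3 and 4 exceeded 10 CPM. In ADLIB Period 2 the range was 0.618 to 54.2 CPM and the median 5.07 CPM, and in RES Period 2 it was 0.267 to 20.3 CPM and 2.82 CPM. All 4 groups therefore overlapped, and the group medians differed more than the extremes did.

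**Figure D3:**
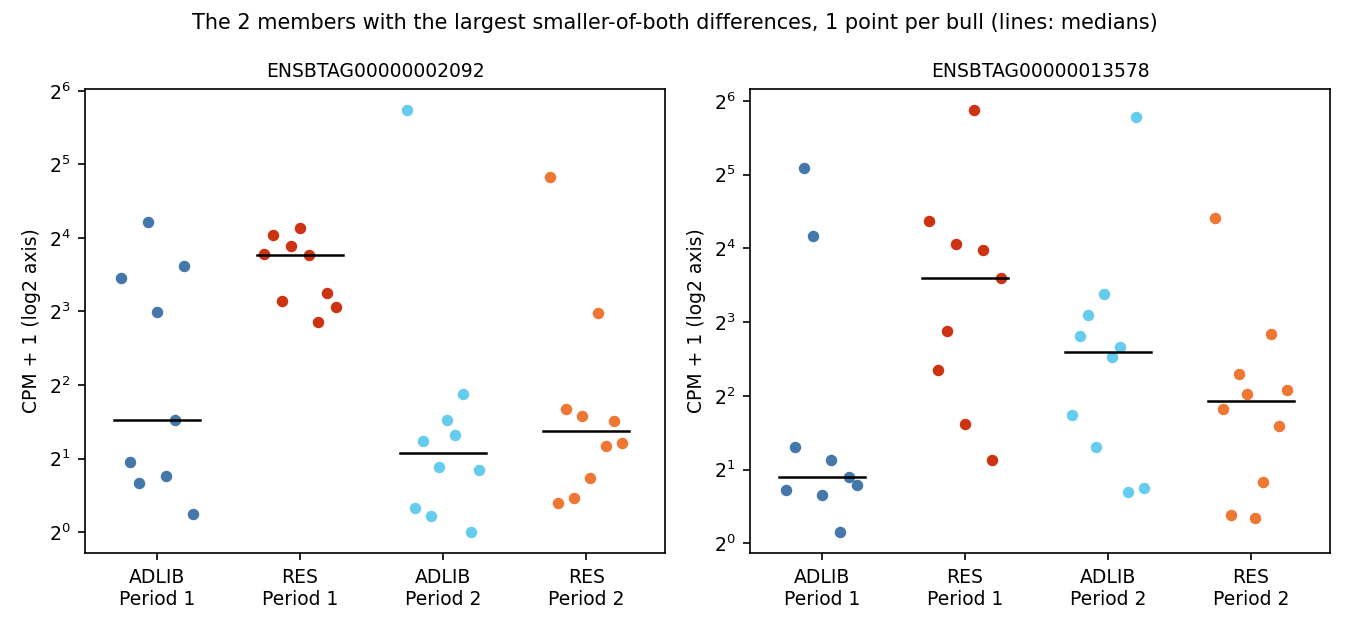
Each point is the value of a bull in CPM + 1 on a log2 axis, and lines mark group medians, for the 2 members that ranked highest by the smaller of their rise and their fall; other members had a larger rise or fall alone. For ENSBTAG00000002092 the RES Period 1 bulls lie in a band from 6.23 to 16.6 CPM, and ADLIB Period 2 replicate 1 stands alone at 52.4 CPM. For ENSBTAG00000013578 the RES Period 1 bulls spread from 1.19 to 57.8 CPM.

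The members of highest level also differed widely between bulls of the same group. The most abundant member, with a mean of 425 CPM, ranged from 35.1 to 992 CPM in ADLIB Period 1 (median 60.5), from 20.5 to 2719 CPM in RES Period 1 (median 243), from 71.1 to 834 CPM in ADLIB Period 2 (median 269) and from 18.8 to 1384 CPM in RES Period 2 (median 224). Its median was low in ADLIB Period 1 alone. The third most abundant member, with a mean of 201 CPM, was steadier, at 173 to 381 CPM in RES Period 1 (median 215), 72.9 to 311 CPM in ADLIB Period 1 (median 175), 111 to 417 CPM in ADLIB Period 2 (median 155) and 38.2 to 563 CPM in RES Period 2 (median 178).

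Some members were nearly absent from some bulls and abundant in others of the same group. A range of at least 4 on the log2 scale within each of the 4 groups was found for 6 members and for 13 of all 12,543 genes, which is 0.104%. The member with the largest rise, 1.95, was among them. It exceeded 10 CPM in 3 of 9 ADLIB Period 1 bulls, 6 of 9 RES Period 1 bulls, 7 of 10 ADLIB Period 2 bulls and 5 of 10 RES Period 2 bulls, with extremes of 0 and 222 CPM. Its mean in ADLIB Period 2 was 2.01 higher than in ADLIB Period 1, the largest such difference among all genes, so that RES Period 1 minus ADLIB Period 2 came to -0.05. Another of the 6, with a mean of 199 CPM, ranged from 2.42 to 237 CPM in ADLIB Period 1, from 4.32 to 705 CPM in RES Period 1, from 10.6 to 702 CPM in ADLIB Period 2 and from 0.607 to 533 CPM in RES Period 2. Bulls with little and bulls with much of the transcript were thus found in each group.

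Bulls of a group differed more in the members than in other genes of similar level. In ADLIB Period 2, whose values entered the choice only through the limit on the mean level, the median SD of log2(CPM + 1) between the 10 bulls was 0.53 for members under 10 CPM and 0.34 for all genes under 10 CPM. It was 0.64 for members and 0.24 for all genes between 10 and 100 CPM, and 1.06 and 0.22 between 100 and 500 CPM. The difference in spread was thus present in each range of level and widest among the abundant members, and was not tested. Genes that vary widely between bulls meet thresholds on group means more readily, so a wider spread follows in part from the choice. It is not read as a separate property of the members.

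The question whether the members also separated the diets after re-alimentation was put to RES and ADLIB in Period 2. It shares the RES Period 2 bulls with the rule, which fixed them as low relative to RES Period 1, but ADLIB Period 2 was not used for the differences. The median difference of RES from ADLIB over the members was -0.03, with quartiles of -0.24 and 0.12, while the median over all genes was 0.00. A difference under 0.2 in either direction was found in 92 members, and the quartiles over all genes were -0.08 and 0.09. In 20 members RES was at least 0.4 lower and in 9 at least 0.4 higher, which is 12.1% and 5.45% of the members, against 0.694% and 0.845% of all genes. After the filter on low counts 159 members were tested with limma and none passed an adjusted p under 0.05, as was so for all 12,541 genes tested (0%). At an unadjusted p under 0.05 there were 7 members, each lower in RES, which is 4.40% of those tested. Over all genes the share was 4.82% in both directions together and 2.45% with RES lower. The edgeR quasi-likelihood test, the edgeR exact test and DESeq2 each called no member and no other gene (0%).

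The member with the smallest p in this comparison differed by -1.51 (SE 0.41, adjusted p = 0.920 from limma). It ranged from 0.332 to 4.93 CPM in RES Period 2, with a median of 1.91 CPM, and from 0.824 to 32.2 CPM in ADLIB Period 2, with a median of 6.71 CPM. In RES Period 1 its median was 8.66 CPM and in ADLIB Period 1 it was 3.29 CPM, so RES Period 2 held the lowest values. The groups overlapped in this member, and no member separated RES from ADLIB in Period 2 without overlap (0% of all genes). ENSBTAG00000002092 differed by 0.26 (SE 0.59) between RES and ADLIB in Period 2 and ENSBTAG00000013578 by -0.61 (SE 0.54), with adjusted p of 0.970 and 0.928 from limma.

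The change over time under constant ad libitum feeding was compared between ADLIB Period 2 and ADLIB Period 1. It shares ADLIB Period 1 with the rule, which fixed it as low relative to RES Period 1. The median change over the members was 0.00, with quartiles of -0.15 and 0.22. In 87 members the change was under 0.2 in either direction, and the quartiles over all genes were -0.09 and 0.08. In 20 members ADLIB Period 2 was at least 0.4 higher and in 14 at least 0.4 lower, against 1.16% and 1.48% of all genes. For 140 members the ADLIB Period 2 mean lay below the middle of the means of both diets in Period 1, and for 7 it was at or above the RES Period 1 mean. Both counts use the Period 1 means of the rule and were not made over all genes. All 165 members were tested and limma called none at an adjusted p under 0.05 (0% of the 12,526 genes tested). At an unadjusted p under 0.05 there were 7 members, 2 higher and 5 lower in Period 2, which is 4.24% against 5.73% of all genes (3.09% higher and 2.64% lower). The quasi-likelihood test of edgeR called no member (0% of all genes), its exact test called none (0.024%) and DESeq2 called 1 (0.0319%). That member was higher in ADLIB Period 2 by 1.87 (SE 0.42, adjusted p = 0.0294 from DESeq2). On the log2(CPM + 1) scale of limma the difference was 0.75 (SE 0.49, adjusted p = 0.930). The member had 0.857 to 43.8 CPM in ADLIB Period 1 (median 1.74) and 1.96 to 25.0 CPM in ADLIB Period 2 (median 3.97), so that its highest bull belonged to Period 1.

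The member with the smallest p over time in ADLIB fell by 0.65 (SE 0.18, adjusted p = 0.613 from limma). Its values were 29.6 to 85.9 CPM in ADLIB Period 1 (median 44.1) and 22.2 to 44.4 CPM in ADLIB Period 2 (median 31.9). In RES they were 42.9 to 117 CPM in Period 1 (median 66.4) and 19.8 to 54.0 CPM in Period 2 (median 36.8). Both diets were thus lower in Period 2 in this member.

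**Figure D4:**
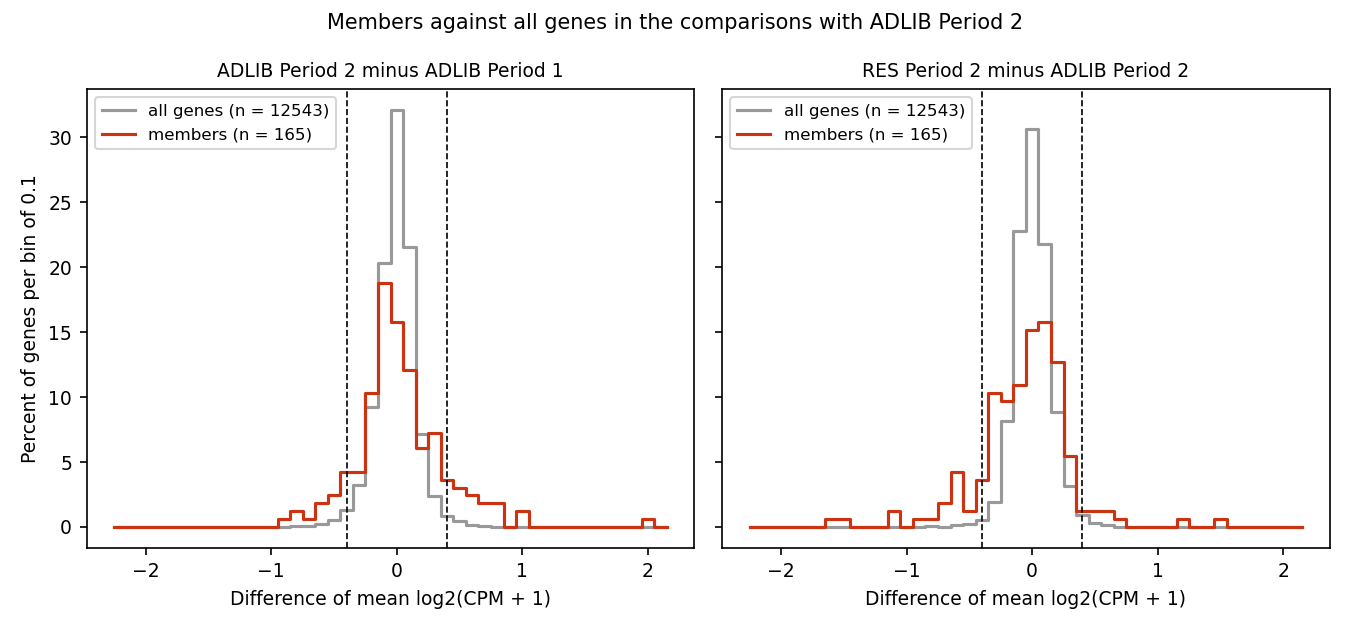
Both panels give the percent of genes in bins of 0.1 of the difference of mean log2(CPM + 1), for the 165 members (red) and all 12,543 genes (grey), with dashed lines at 0.4 in either direction. Left, ADLIB Period 2 minus ADLIB Period 1; right, RES Period 2 minus ADLIB Period 2. The members centre near 0 in both, with medians of 0.00 and -0.03, and are spread more widely than all genes.

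The tests of the contrasts that chose the members are given for completeness, and nothing is read from them. In RES against ADLIB in Period 1, limma called none of the 164 members tested at an adjusted p under 0.05 (0.00792% of all genes were called) and 109 had an unadjusted p under 0.05, against 4.63% of all genes with RES higher. The quasi-likelihood test of edgeR called none (0.00792% of all genes, RES higher), its exact test 16 (0.206%) and DESeq2 18 (0.309%). In RES Period 2 against RES Period 1, limma called 35 of 165 members, all lower in Period 2, against 0.806% of all genes, and 122 had an unadjusted p under 0.05, against 7.84%. The quasi-likelihood test called 34 (0.75% of all genes), the exact test 61 (1.36%) and DESeq2 57 (1.9%). Without RES Period 2 replicate 1 limma called 49 members, and the share of all genes called lower rose with them to 1.15%. The difference between the diets in the change over time, which contains both contrasts of the rule, was called in no member by limma (0.0239% of all genes), the quasi-likelihood test (0.0159%) or DESeq2 (0.0319%), and 68 members had an unadjusted p under 0.05 with the change lower in RES, against 2.5% of all genes.

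The members did not vary together as a single unit between bulls. The deviations of each member from its group means were correlated over the 38 bulls, and members were joined by average linkage at a mean correlation of 0.4. These blocks were formed after the values had been seen and carry no test, and bulls share the library steps and the scaling that such correlations can pick up. The first block held 40 members with a median pairwise r of 0.58, the second 30 members with a median r of 0.56 and the third 9 members with a median r of 0.49. The other 86 members fell into small sets of at most 7. Over all 13,530 pairs of members the median r was 0.09, and 2.22% of pairs reached 0.7, compared with 0.168% of all pairs of genes.

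The first block was high in 1 to 3 bulls of each group. Its mean level reached 5.39 in ADLIB Period 1 replicate 4, 5.85 in RES Period 1 replicate 6, 5.41 in ADLIB Period 2 replicate 9 and 5.30 in RES Period 2 replicate 1. RES Period 1 replicates 1 and 4 followed at 5.23 and 5.19, and ADLIB Period 1 replicate 3 at 4.61. The medians of these groups were 3.18, 4.26, 3.80 and 3.67. Its range in RES Period 1, from 3.12 to 5.85, overlapped with those of the other groups. Group means ran from 3.54 to 4.35 and SDs from 0.78 to 0.94, so the spread between bulls of a group was about as large as the difference between group means.

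The second block was high in ADLIB Period 1 replicate 4 (4.15) and ADLIB Period 2 replicate 1 (3.96), and less so in RES Period 2 replicate 1 (3.54). In RES Period 1 it ranged from 2.75 to 4.09 with a median of 3.23. Replicates 4, 1 and 6 of that group stood at 4.09, 4.00 and 3.93, and the next bull at 3.26. The medians were 2.33 in ADLIB Period 1, 2.18 in ADLIB Period 2 and 2.50 in RES Period 2. Apart from the ADLIB and RES Period 2 bulls named and 1 or 2 others per group, the RES Period 1 bulls stood above the rest.

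The third block went the other way. It was lowest in ADLIB Period 1 replicate 4 (3.25), RES Period 1 replicate 4 (4.21), ADLIB Period 2 replicate 1 (3.65) and RES Period 2 replicate 1 (3.44), each of which was the highest bull of its group in the second block. The levels of the third block had r of -0.62 with those of the first and -0.51 with those of the second over the 38 bulls, and the first and second had r of 0.57 with each other. Without ADLIB Period 1 replicate 4 and RES Period 2 replicate 1 these were -0.48, -0.31 and 0.38 over 36 bulls.

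The 86 members outside these blocks were left after members that varied together over these same bulls were set apart. A small spread of their mean level between bulls is therefore partly built in, and nothing is read from it. The mean level of the 86 was 3.64 ± 0.09 (SD, n = 9) in RES Period 1, with all bulls between 3.49 and 3.71. It was 2.99 ± 0.22 (n = 9) in ADLIB Period 1, 2.97 ± 0.15 (n = 10) in ADLIB Period 2 and 2.89 ± 0.14 (n = 10) in RES Period 2, and no bull of these groups exceeded 3.30. RES Period 1 did not overlap with any other group in this mean level. The rule chose each member as high in RES Period 1, so nothing is read from the lack of overlap. Pairs of the 86 had a median r of 0.06, with a range from -0.71 to 0.92. Limma called 35 members between the periods in RES, against 0.806% of all genes called lower. Of these members, 25 were among the 86 and 3 among the 40 of the first block. A further 6 were among the 30 of the second block and 1 among the 9 of the third. That contrast chose the members, and nothing is read from the split.

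**Figure D5:**
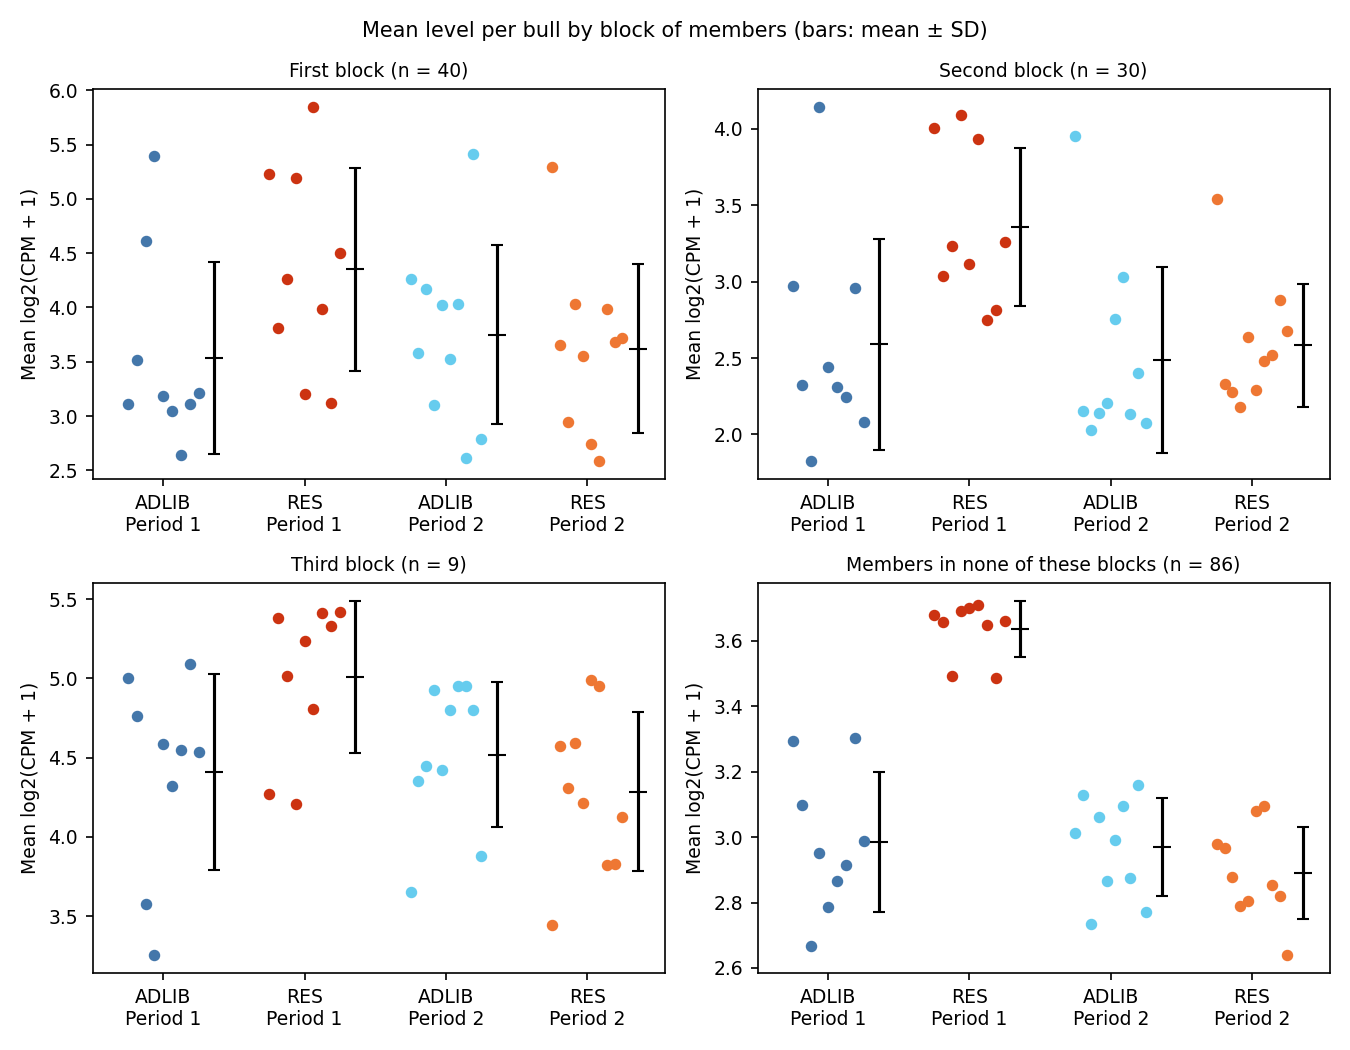
Each point is a bull and gives the mean log2(CPM + 1) over the members of a block, with the group mean ± SD beside it; the y axes differ between panels. From 1 to 3 bulls of each group stand high in the first block. In the second, RES Period 1 replicates 1, 4 and 6 and single bulls of the other groups stand high, and the third is low in several of these bulls. The 86 members outside the blocks lie between 3.49 and 3.71 in all RES Period 1 bulls and at or below 3.30 in all others. The choice of members and the forming of the blocks used these bulls, so this is partly built in.

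The blocks were formed again without the ADLIB Period 2 bulls, to see whether those bulls, left out of the grouping, varied in the same way. From the other 28 bulls the largest blocks had 42 and 26 members, of which 38 were in the first block and 20 in the second. In the 10 ADLIB Period 2 bulls alone the median pairwise r was 0.60 within the former and 0.57 within the latter, with 94.0% and 99.1% of pairs above 0. The median over all pairs of members in these bulls was 0.12 and over all pairs of genes 0.00. Members that varied together in 3 groups thus had mostly positive r in the fourth. These r rest on 10 bulls. Of these, replicate 9 stood at 5.41 in the first block, with the next at 4.26, and replicate 1 at 3.96 in the second, with the next at 3.03. Values without replicates 9 and 1 were not computed, and the bulls share the library steps and the scaling.

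Measures of library composition moved with the blocks. The sum of the deposited values of a library, which would be equal in all libraries without the scaling, was correlated as a deviation from the group mean with the level of the second block (r = -0.46), the third (r = 0.41) and the first (r = -0.20) over the 38 bulls. Without ADLIB Period 1 replicate 4 and RES Period 2 replicate 1 these were -0.42, 0.36 and -0.11. The sum was lowest in its group in ADLIB Period 1 replicate 4 and ADLIB Period 2 replicate 1, but highest in its group in RES Period 2 replicate 1, which was also high in the first and second blocks. The number of reads had r of 0.16, 0.14 and -0.07 with the first, the second and the third block. For the 86 other members r was -0.04 with the sum and -0.11 with the reads. The part of library composition in these levels was not tested.

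Single bulls decided which genes passed the rule at its edges. Leaving out 1 bull at a time, 87 of the 165 members were chosen each time, and the number chosen ranged from 141 without RES Period 1 replicate 6 to 204 without RES Period 1 replicate 8. Without RES Period 1 replicate 6, 123 of the members remained. With group medians in place of means, 121 of the 165 passed both thresholds, and the differences of medians kept the direction of the rise in 163 members and of the fall in 162. Without ADLIB Period 1 replicate 4 and RES Period 2 replicate 1 together, 213 genes were chosen, of which 152 were members.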

How the data were processed

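Papillae RNA of 38 bulls was sequenced, and per the labels and the methods of the study the authors aligned reads with Tophat and Bowtie to UMD3.1, counted them per Ensembl gene with HTSeq, removed genes of low count and tested with edgeR. The deposited values are a signal per gene and bull. How the authors scaled them is not spelled out; from the values they look like counts per 1,000,000 reads of a TMM-adjusted library size, set separately in each period, and they are called CPM here. They were divided by the value of 1 read, after which all values lay within 0.05 of a whole read, giving 5,948,453 to 11,957,654 reads per library. Counting error limits the precision for genes of low level.

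The members and lists were chosen with earlier results of these data known. The rule was applied to log2(CPM + 1), with a pseudocount of 1. limma 3.58.1 with a variance trend was fitted to all genes of the groups compared, after TMM rescaling and the filterByExpr function of edgeR 4.0.16, two-sided, with Benjamini-Hochberg adjustment over all genes tested and a threshold of 0.05. Alternatives were edgeR's quasi-likelihood and exact tests and DESeq2 1.42.0 on the recovered reads, RLE scaling, the deposited scale, no filter, a pseudocount of 0.1, the replicate number as a block, the library digit as a covariate, a fit of all 4 groups and fits without each bull. The fits were tested on simulated data. Each sample is a separate bull.

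None of the 12,802 identifiers in the files could be paired with a symbol, so gene lists, cell type markers and sequences were not analysed here. At most 2 identifiers are printed, those ranked highest by the smaller of rise and fall; other members are described by rank, level or smallest p, and the extreme, wide and non-overlapping members and the blocks were chosen after their values were seen. Blocks were cut at a distance of 0.6 (1 minus r) in scipy 1.17.1.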

Additional observations from a re-analysis of the deposited data

Results flagged for a closer look

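A bull was marked when its gap to the next bull exceeded Dixon's 95% limit of the range of its group, and 28 combinations of a level and a group were looked at, of which 8 were marked. Chance marks about 1 in 20 groups, and the levels of all members and of the blocks share genes and bulls.

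In the mean log2(CPM + 1) of all members, ADLIB Period 1 replicate 4 stood at 3.78 with the next bull at 3.29, and RES Period 2 replicate 1 at 3.67 with the next at 3.12. RES Period 2 replicate 1 was also marked in the first block, at 5.30 with the next at 4.03. In the second block 3 bulls were marked. They were ADLIB Period 1 replicate 4 at 4.15, ADLIB Period 2 replicate 1 at 3.96 and RES Period 2 replicate 1 at 3.54, above next values of 2.97, 3.03 and 2.88. ENSBTAG00000002092 was marked in ADLIB Period 2 replicate 1, at 5.74 in log2(CPM + 1), which is 52.4 CPM. ENSBTAG00000013578 was marked in ADLIB Period 2 replicate 9, at 5.79, which is 54.2 CPM, with the next bull at 9.39 CPM.

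Over single members, the highest bull of ADLIB Period 1 was this far apart in 16 members, and in 15 of these it was replicate 4. In RES Period 2 there were 13 such members, 10 of them with replicate 1 highest. In ADLIB Period 2 there were 16 and in RES Period 1 there was 1. These are 9.70%, 7.88%, 9.70% and 0.606% of the members, against 3.60%, 2.56%, 5.38% and 1.87% of all genes in the same order. What sets these bulls apart was not tested.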

How the results depend on the processing

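The number of members called was 0 in RES against ADLIB in Period 2 and in the change over time between the diets under each alternative run, leaving out each bull included. Over time in ADLIB it was 0, except 1 with DESeq2. In RES against ADLIB in Period 1 it was 0 by limma, 18 with DESeq2, 16 with the exact test and 1 with the library digit, and from 0 to 4 without each bull in turn, the highest without ADLIB Period 1 replicate 4. Between the periods in RES it was 35, against 57 with DESeq2, 61 with the exact test, 17 with the library digit and 22 with all 4 groups in 1 fit, and from 24 to 49 without each bull. The genes called in all moved with these numbers, from 204 to 456, 313, 103 and 138, and to between 136 and 286 without each bull. In Period 1 they were 1, 62 with DESeq2, 40 with the exact test and 2 with the library digit, and from 1 to 13 without each bull. The rule chose 250 genes with a pseudocount of 0.1, 320 with thresholds of 0.3 and 104 with thresholds of 0.5, and from 141 to 204 without each bull. Scaling by RLE chose 164 and TMM over all bulls 164. Group medians chose 210 and dropping no identifier 171; these, TMM over all bulls and the choice without both bulls that stood apart were added after seeing the data. The median difference of the members stayed between -0.07 and 0.05 in both comparisons with ADLIB Period 2. The cause of the differences between tests was not tested.

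Bulls that share a replicate number did not deviate together throughout. The mean r of same-numbered bulls was 0.12 in Period 1, 0.03 over time in RES, 0.00 in Period 2 and 0.03 over time in ADLIB, and 5 of 9, 3 of 9, 2 of 10 and 3 of 9 pairs exceeded 0.1, so the numbers were not taken as pairs. In Period 1 the highest r of a same-numbered pair was 0.71, and the mean over other pairs was -0.01. There 3 RES bulls had their highest r with the ADLIB bull of their own number. The study blocked its bulls on live weight and age, and whether the numbers follow these blocks is not known here. With the replicate block 26 members were called between the periods in RES and 0 in the other comparisons. In RES against ADLIB in Period 1 this setting called 2 genes in all. Between the periods in RES, a contrast of the rule, the genes called in all are not given here, and nothing is read from the 26.

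Depth limits members of low level most, since the member with the fewest reads had 460 in all libraries together.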

Other observations

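Of the 2 genes that met both differences but lay at or over 500 CPM on average, one had medians of 896 CPM in ADLIB Period 1, 1509 CPM in RES Period 1, 1225 CPM in ADLIB Period 2 and 830 CPM in RES Period 2. The other had medians of 663, 687, 696 and 475 CPM in the same order, with lowest bulls at 7.78 CPM in ADLIB Period 1 and 18.3 CPM in RES Period 2, so its difference of means between the diets in Period 1, 0.66 in log2(CPM + 1), stood beside nearly equal medians.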
